A study of Mus musculus with 10 samples.

Results

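Ribosome footprints were followed for 9 genes that encode regulators of alternative splicing in the developing brain: Ptbp1, Ptbp2, Ptbp3, Srrm4, Nova1, Nova2, Rbfox1, Rbfox2 and Rbfox3. The members were chosen by name, as the genes whose Ensembl identifier maps to one of these symbols. All 9 were found among the 22373 genes of the footprint table, and all 9 were among the 13484 genes kept for testing, which had at least 32 footprints over both libraries of at least one stage. Footprints are fragments of mRNA protected by a ribosome, so a footprint count reflects the level of an mRNA together with its occupancy by ribosomes.

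Most mRNAs of the brain can be spliced in more than one way, and RNA-binding proteins decide which exons are kept. Ptbp1 binds pyrimidine-rich sequence and represses neuronal exons in progenitors and non-neuronal cells. One of the exons it represses lies in the mRNA of its paralogue Ptbp2, and skipping of that exon leads to decay of the transcript. Neurons replace Ptbp1 with Ptbp2 as they are born, and proteins of the Srrm4, Nova and Rbfox families act on exons of synaptic and cytoskeletal genes.

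Neocortex came from wild-type CD-1 mice at 5 stages, embryonic days E12.5, E14, E15.5 and E17 and the day of birth, P0, without treatment of the animals. Each stage had 2 libraries, and each library was a pool of many brains of both sexes, so a replicate is a pool and not an animal. The libraries held 7544404 to 36129988 footprint counts, the fewest in replicate 1 at P0. Among 4559 genes that averaged 500 counts or more, the log2 ratio between replicates had an SD of 0.13 to 0.22 in the embryonic stages and 0.54 at P0, so values at P0 are the least certain. The tissue is bulk, and fewer cells of a type cannot be told apart from fewer footprints per cell. Levels are given as CPM, counts relative to the library size after scaling by TMM factors, and they were compared between stages for each gene, not between genes, because counts were not divided by coding length.

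From E12.5 to P0 all 3 Ptbp genes fell, Nova2 and all 3 Rbfox genes rose, and Srrm4 and Nova1 were not called. With library totals as the only scaling, Ptbp2 was not called and Srrm4 and Nova1 were called higher. With totals that left out 66 genes whose symbols start with Hist, the calls of all 9 were those of the main scaling. In this comparison 3 members were called lower and 4 higher, where 32.0% and 30.1% of all genes tested were called lower and higher (limma-voom with Benjamini-Hochberg adjustment, called at an adjusted p under 0.05 and a change of at least 0.32 on the log2 scale). The largest fall was that of Ptbp1, by 2.80 on the log2 scale (SE 0.17), and the largest rise was that of Rbfox1, 3.18 (SE 0.10). The median log2 change was 0.32 over the 9 members and -0.01 over all genes tested. A moderated F test across the 5 stages called all 9 members, beside 63.8% of all genes. All 9 were called in 4 of 18 alternative fits of the F test and 7 or 8 in the others, and the members lost were Srrm4, Nova1 and, with library totals as the only scaling, Ptbp2.

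**Figure D1:**
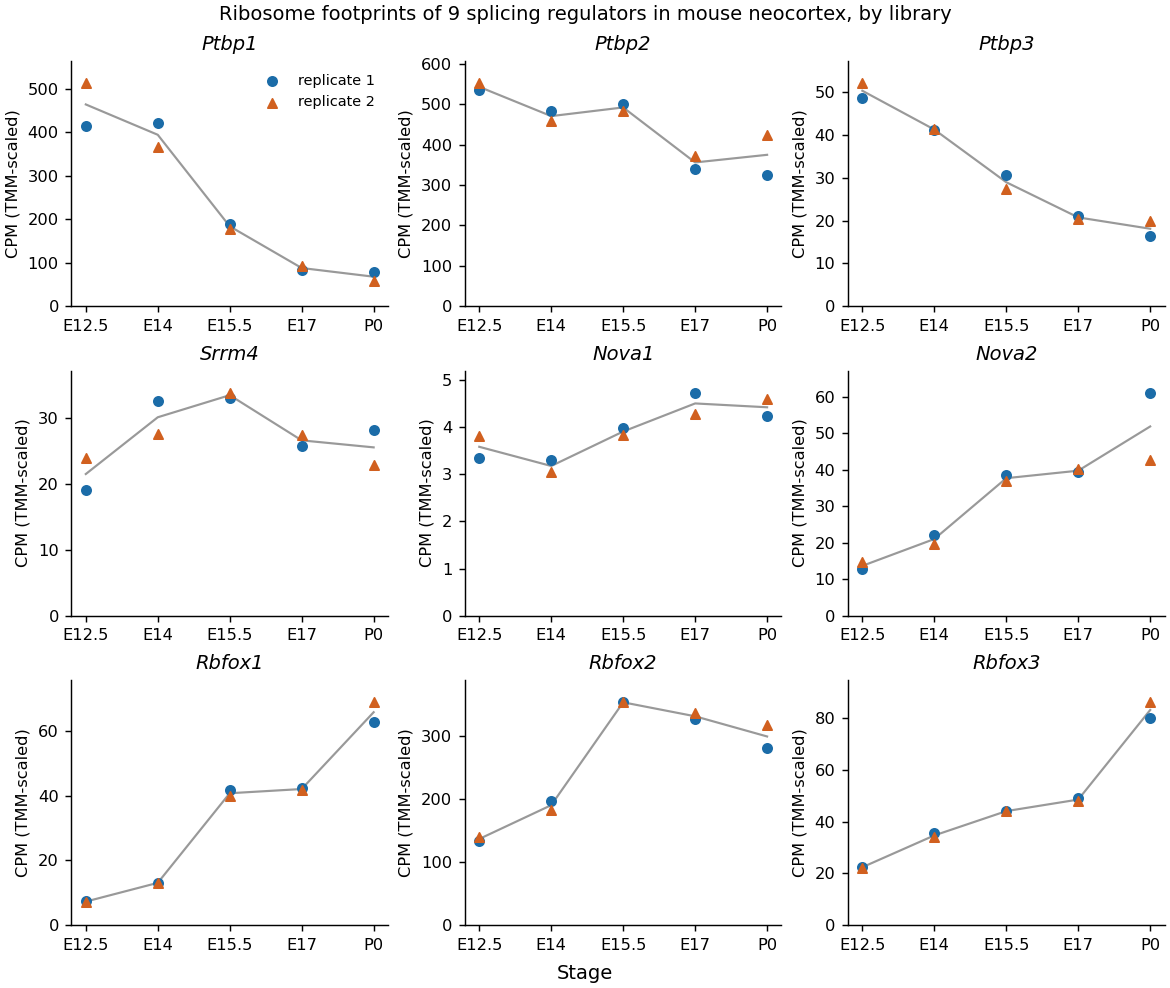
Footprint level of each member in each of the 10 libraries, with the stage on the x axis and CPM on TMM-scaled library sizes on the y axis, which starts at 0 and has its own range in each panel. Circles are replicate 1, triangles are replicate 2, and the line joins the stage means. Ptbp1 falls from a mean of 465 CPM at E12.5 to 68.0 at P0, Rbfox1 rises from 7.28 to 65.8, and Srrm4 is highest at E15.5 with 33.5.

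Ptbp1, the repressor of neuronal exons in progenitors, had 416 and 513 CPM in the libraries of E12.5, 422 and 368 CPM at E14, 190 and 178 CPM at E15.5, 84.2 and 91.8 CPM at E17, and 79.0 and 56.9 at P0. The libraries of E12.5 and E14 overlapped, and each later stage lay wholly below the one before it. Ptbp1 was lower by 2.14-fold from E14 to E15.5 (log2 change -1.10, SE 0.17, adjusted p = 0.00146) and by 2.09-fold from E15.5 to E17 (log2 change -1.07, SE 0.17, adjusted p = 0.0126). From E12.5 to E14 the change was -0.23 (adjusted p = 0.563) and from E17 to P0 it was -0.41 (adjusted p = 0.126), neither called. The last step depended on which library of P0 was kept: it was -0.63 and called without replicate 1 (adjusted p = 0.0144), and -0.15 and not called without replicate 2 (adjusted p = 0.497). Over the whole course Ptbp1 was 6.98-fold lower (adjusted p = 3.48e-06), on counts of 726 to 13718 per library.

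Ptbp2, the neuronal paralogue that holds back exons of later maturation, had 535 and 552 CPM at E12.5, 484 and 458 CPM at E14, 500 and 485 CPM at E15.5, 339 and 373 CPM at E17, and 325 and 425 CPM at P0. Its levels at E17 and P0 overlapped, and both of those stages lay below the other three. No single step was called, with the largest change -0.47 (SE 0.13, adjusted p = 0.0614) from E15.5 to E17. From E12.5 to P0 Ptbp2 was 1.46-fold lower (log2 change -0.55, SE 0.13, adjusted p = 0.00609). This call depended on the scaling and on the samples in the fit. With library totals as the only scaling, the median of all genes moved by 0.51 from E12.5 to P0. The change of Ptbp2 was then -0.02 (adjusted p = 0.904) and, relative to that median, -0.53. With totals that left out the Hist genes, the change of Ptbp2 was -0.54 and called (adjusted p = 0.00303). In a fit of E12.5 and P0 alone the change was -0.55 with an adjusted p of 0.0734.

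Ptbp3, the third paralogue, best known from blood cells, had 48.7 and 52.1 CPM at E12.5, 41.2 and 41.5 CPM at E14, 30.6 and 27.4 CPM at E15.5, 21.1 and 20.5 CPM at E17, and 16.3 and 19.9 CPM at P0. The libraries of each stage lay below those of the stage before, with no overlap. Ptbp3 was called lower from E14 to E15.5 (log2 change -0.51, SE 0.11, adjusted p = 0.0092) and from E15.5 to E17 (log2 change -0.48, SE 0.12, adjusted p = 0.0409). It was 2.74-fold lower at P0 than at E12.5 (adjusted p = 1.79e-05), a smaller fall than that of Ptbp1 over the same span. The call from E15.5 to E17 was lost in 11 of 19 alternatives, with changes of -0.57 to -0.40. From E14 to E15.5 the call was lost with library totals only (log2 change -0.22, adjusted p = 0.129) and without replicate 2 of E14 (-0.51, adjusted p = 0.0533) or of E15.5 (-0.43, adjusted p = 0.0776).

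The ratio of 2 genes within a library does not depend on library size, so paralogues were also compared as ratios of their counts, with 0.5 added to each count. The value of a ratio also carries the lengths of both coding sequences, and its change over the stages does not. Ptbp2 had 1.28 and 1.08 footprints for each of Ptbp1 at E12.5, then 1.15 and 1.24 at E14, then 2.63 and 2.72 at E15.5, then 4.03 and 4.06 at E17, and 4.12 and 7.46 at P0. The first 2 stages overlapped, and from E15.5 each stage lay above the one before. The ratio rose by 2.24 on the log2 scale from E12.5 to P0 (SE 0.29), or 4.71-fold, of which 1.16 came between E14 and E15.5. The SE of each ratio used an SD pooled over the 5 stages. For this log2 ratio the SD was 0.18 at E12.5 and 0.61 at P0, so the SE understates the spread at P0. The stages differed by an exact permutation test of the F statistic (p = 0.00529, adjusted over the 5 ratios 0.00882, smallest possible p 0.00106). Both libraries of P0 lay far apart, and the rise was 2.67 without replicate 1 and 1.81 without replicate 2.

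The ratio of Ptbp3 to Ptbp1 moved the same way with a smaller size. It was 0.117 and 0.102 at E12.5, then 0.0976 and 0.113 at E14, then 0.161 and 0.154 at E15.5, then 0.251 and 0.223 at E17, and 0.207 and 0.350 at P0. The values of P0 spanned those of E17, and the first 2 stages overlapped as well. The log2 ratio rose by 1.30 from E12.5 to P0 (SE 0.26, exact permutation test over the 5 stages, p = 0.0127, adjusted 0.0127), and by 1.68 or 0.93 without replicate 1 or 2 of P0. Its SD was 0.14 at E12.5 and 0.54 at P0.

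The promoters of Ptbp1 and Ptbp2 are shown because both genes were called lower over the course, to different extents. The call of Ptbp2 depended on the scaling and on the samples in the fit. The windows hold the 250 bases before the annotated start (RefSeq sequences, GRCm38.p6), written 5′ to 3′ on the strand of the gene, and the capitals mark each CG dinucleotide. Ptbp1 lies at chr10:79854182-79854431 on the plus strand and Ptbp2 at chr3:119783389-119783638 on the minus strand.
Ptbp1: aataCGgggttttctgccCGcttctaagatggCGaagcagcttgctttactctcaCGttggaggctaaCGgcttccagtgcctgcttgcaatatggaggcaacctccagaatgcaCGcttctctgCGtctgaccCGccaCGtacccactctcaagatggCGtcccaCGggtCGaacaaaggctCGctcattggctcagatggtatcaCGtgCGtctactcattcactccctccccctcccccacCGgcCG
Ptbp2: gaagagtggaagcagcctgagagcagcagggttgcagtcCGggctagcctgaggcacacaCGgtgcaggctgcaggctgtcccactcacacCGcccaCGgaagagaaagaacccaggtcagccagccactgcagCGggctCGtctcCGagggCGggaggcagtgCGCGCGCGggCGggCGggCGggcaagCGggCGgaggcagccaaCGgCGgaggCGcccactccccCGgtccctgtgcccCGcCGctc
Ptbp1 had 17 CG dinucleotides and Ptbp2 had 23, beside a median of 6 over the 32851 windows of the table. Ptbp2 held 6 matches to the GC box GGGCGG, searched on both strands with overlapping matches counted, and Ptbp1 had none. Of all windows, 32.7% held this motif. Ptbp1 held 1 match to the E-box CAGATG, found in 14.4% of windows, searched on both strands. No measurement of binding or methylation was made at these promoters.

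Srrm4, which promotes the inclusion of very short exons in neurons, had 19.0 and 24.0 CPM at E12.5, 32.7 and 27.6 CPM at E14, 33.1 and 33.9 CPM at E15.5, 25.8 and 27.5 CPM at E17, and 28.3 and 22.9 CPM at P0. It was highest at E15.5, and the libraries of P0 overlapped with those of E12.5, E14 and E17. No step was called. The change was 0.48 from E12.5 to E14 (SE 0.15, adjusted p = 0.174) and -0.33 from E15.5 to E17 (SE 0.15, adjusted p = 0.209), and the F test across stages gave an adjusted p of 0.0368. From E12.5 to P0 the change was 0.22 (SE 0.16, adjusted p = 0.252). With library totals only it was 0.74 and called (adjusted p = 0.0027), or 0.23 relative to the median of all genes. Its paralogue Srrm3, which acts on the same class of exons, went from 2.31 ± 0.15 CPM at the first stage to 8.73 ± 0.81 CPM at the last (SD, n = 2 libraries, log2 change 1.94, SE 0.18, adjusted p = 3.54e-05). Whether the courses of Srrm3 and Srrm4 differ was not tested.

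Nova1 and Nova2 encode KH-domain proteins that bind clusters of short motifs around exons of synaptic genes. Nova1 had few footprints, 39 to 193 counts per library, and stood at 3.36 and 3.82 CPM at E12.5, 3.31 and 3.04 CPM at E14, 3.98 and 3.84 CPM at E15.5, 4.73 and 4.28 CPM at E17, and 4.24 and 4.61 CPM at P0. Its highest library was 1.56 times its lowest. No step of Nova1 was called, and from E12.5 to P0 its change was 0.32 (SE 0.14, adjusted p = 0.0799) with an F test at 0.042. With library totals only it was 0.84 and called (adjusted p = 0.000637), or 0.33 relative to the median of all genes.

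Nova2 had 12.7 and 14.6 CPM at E12.5, 22.3 and 19.8 CPM at E14, 38.6 and 36.9 CPM at E15.5, 39.4 and 40.1 CPM at E17, and 61.1 and 42.7 CPM at P0. Each stage lay above the one before with no overlap, and the distance between both libraries was widest at P0. Nova2 rose 1.80-fold from E14 to E15.5 (log2 change 0.85, SE 0.17, adjusted p = 0.00526) and 3.66-fold from E12.5 to P0 (log2 change 1.87, SE 0.17, adjusted p = 3.55e-05). The changes of the other steps were 0.61, 0.08 and 0.33 in order of stage and were not called. The last of them was 0.62 and called without P0 replicate 2 (adjusted p = 0.00559), and 0.10 and not called without P0 replicate 1 (adjusted p = 0.482).

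The ratio of Nova1 to Nova2 fell from 0.264 and 0.261 at E12.5 to 0.149 and 0.154 at E14 and 0.103 and 0.104 at E15.5. It was 0.120 and 0.107 at E17 and 0.0694 and 0.108 at P0. The first 3 stages were separate, while the values of P0 reached into those of E17. The log2 ratio changed by -1.60 from E12.5 to P0 (SE 0.20, exact permutation test over the 5 stages, p = 0.00952, adjusted 0.0119), with -1.29 or -1.91 without replicate 1 or 2 of P0. Its SD was 0.015 at E12.5 and 0.44 at P0.

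The Rbfox proteins bind a shared motif in introns and steer exons of ion channel, cytoskeletal and synaptic genes. Rbfox1 had the widest range of the 9 members on a relative scale. It stood at 7.37 and 7.18 CPM at E12.5, 13.08 and 13.06 CPM at E14, 41.8 and 39.8 CPM at E15.5, 42.3 and 41.9 CPM at E17, and 62.8 and 68.9 CPM at P0. Replicates were close together in every stage, and no adjacent stages overlapped. Rbfox1 rose 3.12-fold from E14 to E15.5 (log2 change 1.64, SE 0.096, adjusted p = 5.2e-05) and 1.57-fold from E17 to P0 (log2 change 0.65, SE 0.09, adjusted p = 0.00326). From E15.5 to E17 its change was 0.04 (adjusted p = 0.822). Over the whole course it was 9.06-fold higher (adjusted p = 4.8e-07), the largest rise among the 9.

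Rbfox2, the member of the family that is also broadly expressed outside neurons, had 134 and 139 CPM at E12.5, 198 and 183 CPM at E14, 354.0 and 353.8 CPM at E15.5, 327 and 336 CPM at E17, and 282 and 318 CPM at P0. It was highest at E15.5, and every stage lay apart from its neighbours. Rbfox2 rose 1.86-fold from E14 to E15.5 (log2 change 0.89, SE 0.093, adjusted p = 0.000286). The later changes, -0.09 and -0.15, were not called (adjusted p = 0.597 and 0.289). At P0 it remained 2.19-fold above E12.5 (log2 change 1.13, SE 0.094, adjusted p = 1.95e-05).

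Rbfox3, the antigen NeuN used to mark mature neurons, had 22.5 and 22.3 CPM at E12.5, 35.4 and 33.9 CPM at E14, 44.0 and 44.2 CPM at E15.5, 49.1 and 48.0 CPM at E17, and 80.2 and 86.2 CPM at P0. The stages rose in order with no overlap. Its largest step was the last one, 1.72-fold from E17 to P0 (log2 change 0.78, SE 0.087, adjusted p = 0.00176), and the step from E14 to E15.5 was 1.27-fold (log2 change 0.35, SE 0.088, adjusted p = 0.0164). That smaller step lay near the fold threshold and was lost in 5 of 19 alternatives, namely the stricter filter and each fit without a library of E14 or E15.5. Over the whole course Rbfox3 was 3.72-fold higher (log2 change 1.90, SE 0.09, adjusted p = 1.19e-06).

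Within the family the balance moved from Rbfox2 toward Rbfox1, while Rbfox1 and Rbfox3 were not compared as a ratio. The ratio of Rbfox1 to Rbfox2 was 0.0549 and 0.0515 at E12.5, then 0.0661 and 0.0713 at E14, then 0.118 and 0.112 at E15.5, then 0.129 and 0.125 at E17, and 0.223 and 0.217 at P0. Every stage lay above the one before, and the log2 ratio rose by 2.04 from E12.5 to P0 (SE 0.054, exact permutation test over the 5 stages, p = 0.00106, the smallest possible, adjusted 0.00265). The ratio of Rbfox3 to Rbfox2 did not rise in one direction. It was 0.168 and 0.160 at E12.5, then 0.179 and 0.185 at E14, then 0.124 and 0.125 at E15.5, then 0.150 and 0.143 at E17, and 0.284 and 0.271 at P0. The values of E15.5 lay below all others and those of P0 above all others. The log2 ratio changed by -0.55 from E14 to E15.5, by 0.92 from E17 to P0 and by 0.76 over the whole course (SE 0.042, exact permutation test over the 5 stages, p = 0.00106, adjusted 0.00265).

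**Figure D2:**
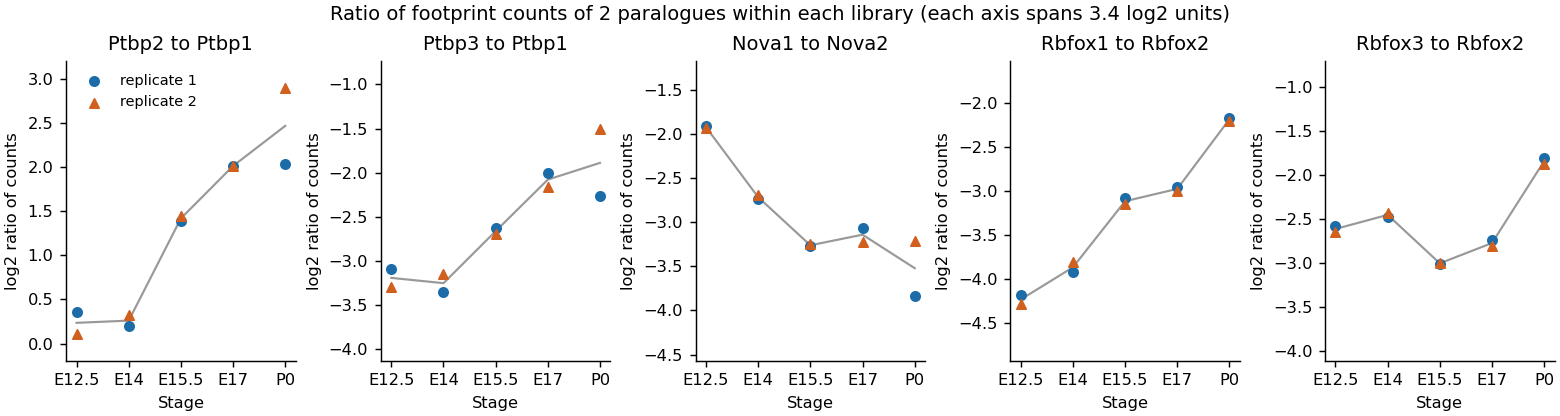
Log2 ratio of the footprint counts of 2 paralogues within each library, with the stage on the x axis and the same span on each y axis. Circles are replicate 1, triangles are replicate 2, and lines join the stage means. The ratio of Ptbp2 to Ptbp1 rises from a mean of 0.23 to 2.47, that of Nova1 to Nova2 falls from -1.92 to -3.52, and that of Rbfox3 to Rbfox2 dips to -3.01 at E15.5 before it reaches -1.85 at P0.

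The promoters of Rbfox1 and Rbfox3 are shown because both genes rose in the last step while Rbfox2 was not called. As above, these are the 250 bases before an annotated start (RefSeq, GRCm38.p6) with each CG dinucleotide in capitals. Rbfox1 has 2 windows, at chr16:5884543-5884792 and chr16:7069585-7069834 on the plus strand. Rbfox3 lies at chr11:118761042-118761291 on the minus strand.
Rbfox1, first window: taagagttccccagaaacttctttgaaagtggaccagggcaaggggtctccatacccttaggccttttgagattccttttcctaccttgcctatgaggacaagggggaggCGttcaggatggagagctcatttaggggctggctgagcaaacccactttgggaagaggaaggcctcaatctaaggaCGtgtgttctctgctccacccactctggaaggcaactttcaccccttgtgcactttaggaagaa
Rbfox1, second window: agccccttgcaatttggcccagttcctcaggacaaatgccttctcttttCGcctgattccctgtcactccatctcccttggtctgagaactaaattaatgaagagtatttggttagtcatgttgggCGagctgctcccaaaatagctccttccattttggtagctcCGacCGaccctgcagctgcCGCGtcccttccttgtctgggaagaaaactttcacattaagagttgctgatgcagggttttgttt
Rbfox3: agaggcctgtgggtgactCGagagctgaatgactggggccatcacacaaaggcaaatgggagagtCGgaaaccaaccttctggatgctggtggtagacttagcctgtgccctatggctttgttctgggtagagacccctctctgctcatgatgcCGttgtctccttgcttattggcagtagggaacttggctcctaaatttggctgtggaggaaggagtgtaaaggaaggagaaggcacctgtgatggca
Rbfox1 had 2 CG dinucleotides in its first window and 6 in its second, and Rbfox3 had 3. The second window of Rbfox1 held the E-box CAGCTG, which reads the same on both strands and was found in 13.0% of all windows, and Rbfox3 held neither E-box. Over the 8 windows of the 7 members with an entry, the number of CG dinucleotides ran from 2 to 23, with 17 for Srrm4, 11 for Nova1 and 10 for Nova2. None of the 8 windows held CAGCACC on either strand, a part of the element bound by the repressor Rest, found in 5.73% of all windows. Which start is used at which stage cannot be read from footprint counts per gene.

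The 4 steps between stages were compared to ask when in neurogenesis these regulators change. From E12.5 to E14, 2 members were called higher, Rbfox1 (log2 change 0.84, SE 0.11, adjusted p = 0.0289) and Rbfox3 (0.63, SE 0.091, adjusted p = 0.0382), in a step where 0.497% of all genes were called higher and 0.141% lower. Both calls were lost in 11 of 19 alternatives, while their changes stayed between 0.60 and 0.91. A limma-voom fit of only these 2 stages gave them adjusted p-values of 0.08 and 0.0926. Some of these alternatives called few genes in all: 9 with the replicate block, 12 with only these 2 stages and 27 with no filter. The main fit called 86. Rbfox2 (0.48, adjusted p = 0.0643) and Nova2 (0.61, adjusted p = 0.144) were not called. With sample quality weights all 4 were called, in a fit that called 655 genes in all.

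From E14 to E15.5, 4 members were called higher (Nova2 and the 3 Rbfox genes) and 2 lower (Ptbp1 and Ptbp3), with 16.5% and 19.6% of all genes called in these directions. With library totals as the only scaling, 6057 of 13484 genes were called, 4404 of them higher. The median of all genes then moved by 0.29, and the members split into 7 higher and 1 lower. The added members, Ptbp2 (0.36), Srrm4 (0.45) and Nova1 (0.60), were 0.07, 0.17 and 0.31 above that median. For E12.5 to P0 the same scaling gave 6 higher and 2 lower, with the median of all genes moved by 0.51.

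From E15.5 to E17, Ptbp1 and Ptbp3 were called lower and no member higher, beside 3.43% of genes called lower and 5.61% higher. Over the alternatives 0 to 4 members were called, all of them lower. The call of Ptbp1 was lost in each of the 4 fits without a library of E15.5 or E17, in which limma-voom called 0 members, with 3 at an unadjusted p under 0.05. From E17 to P0, Rbfox1 and Rbfox3 were called higher and no member lower, beside 9.46% and 11.1% of genes. In a fit of E17 and P0 alone limma-voom called 0 members, with 2 at an unadjusted p under 0.05 and adjusted p-values of 0.11 for Rbfox1 and 0.0945 for Rbfox3.

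**Figure D3:**
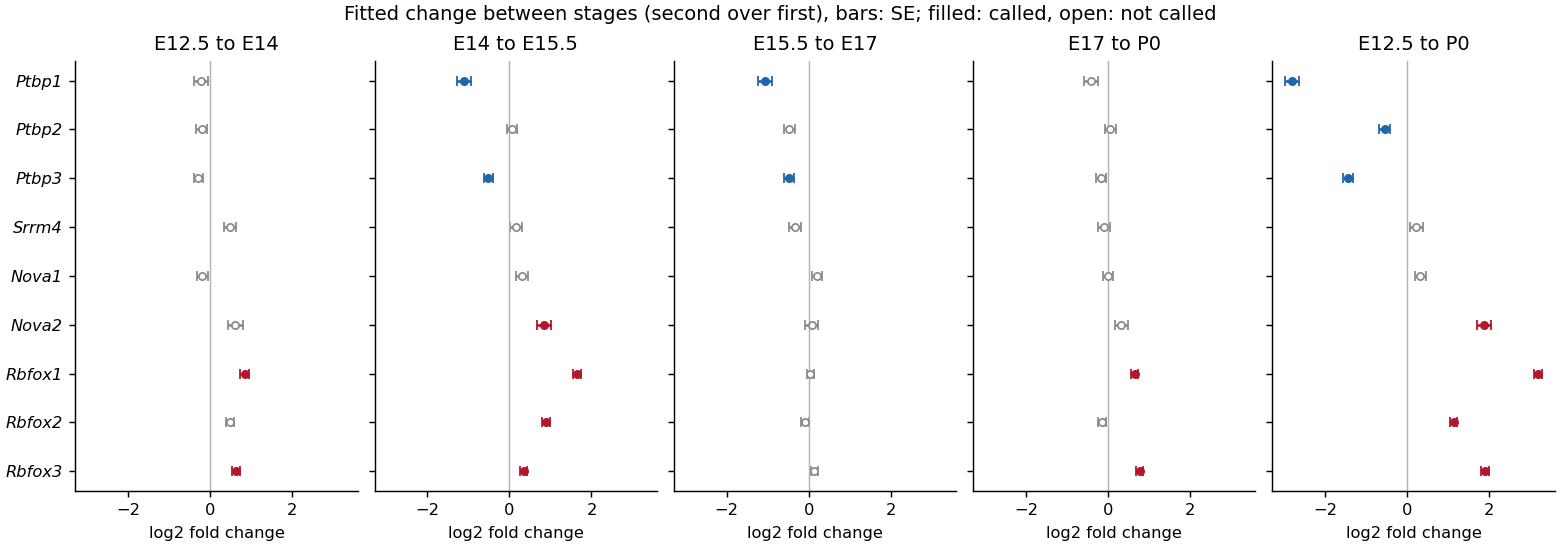
Fitted log2 fold change of the 9 members in each of the 4 steps and from E12.5 to P0, second stage over first, with bars for the SE and one x axis for all panels. Filled points were called changed (red higher, blue lower) and open points were not. From E14 to E15.5 Rbfox1 stands at 1.64 and Ptbp1 at -1.10, and from E15.5 to E17 only points of Ptbp1 and Ptbp3 are filled.

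Levels of cell type markers moved over the same stages. A list of 12 neuron markers summed to 2450 to 2500 CPM at E12.5, 7860 to 8250 at E15.5 and 10700 to 12300 at P0. All 12 genes were called higher from E12.5 to P0, beside 30.1% of all genes. A list of 12 radial glia and progenitor markers had 10 genes lower and 2 higher from E12.5 to P0, beside 32.0% and 30.1% of all genes. None was at 0 in any stage. The list summed to 2290 to 2350 CPM at E12.5, 2250 to 2320 at E14 and 2190 to 2340 at E15.5. Its sum was 2410 to 2530 CPM at E17 and 1460 to 2000 at P0. The median log2 change of its genes was -2.68 from E12.5 to P0 and, with 10 of 12 lower, -1.0 from E14 to E15.5, comparisons in which Ptbp1 changed by -2.80 and -1.10. The neuron markers had medians of 2.61 and 1.28 in these comparisons. Their part in the changes of the 9 regulators was not tested. Between E14 and E15.5, markers of other tissue also fell. The 10 choroid plexus markers, between 290 and 343 CPM at E12.5, went from 1140 CPM in both libraries of E14 to between 11.9 and 14.7. The 10 markers of meninges and fibroblasts went from between 336 and 342 to between 36.3 and 36.6. The 10 red blood cell genes went from between 10000 and 11100 to between 6910 and 7420. Endothelial genes had 8 of 10 lower and 1 higher (median log2 change -1.93). Microglia genes had 6 of 9 tested genes lower (median -0.87), beside 19.6% of all genes. Interneuron genes rose, with 6 of 10 tested genes higher (median 1.63), beside 16.5% of all genes. The part of these lists in the fall of Ptbp1 and Ptbp3 in that step was not tested either.

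Other marker lists were read from E12.5 to P0, where 30.1% of all genes were called higher and 32.0% lower. The summed level of interneuron genes went from 30.1 to 31.8 CPM at E12.5 to 194 to 229 at P0. Of these, 9 of 10 tested genes were higher, with a median log2 change of 3.13. Astrocyte and oligodendrocyte genes summed to 284 to 288 CPM at E12.5 and 281 to 289 at P0, with 8 of 11 tested genes higher and 2 lower, and a median log2 change of 3.16 that the sum does not show. Endothelial genes went from 43.6 to 43.9 CPM to 23.9 to 24.7, with 8 of 10 lower, 2 higher and a median of -2.67. Microglia genes went from 27.2 to 28.4 CPM to 23.6 to 27.4, with 2 of 9 tested genes lower and a median of -0.15.

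The members were set beside 29 other regulators of splicing and RNA processing, of which 27 were tested and 2, Esrp1 and Esrp2, which act in epithelia, were not. From E12.5 to P0, 9 of the 27 were higher, 13 lower and 5 not called, beside 30.1% of all genes higher and 32.0% lower. The median log2 change of the 27 was -0.44 beside -0.01 over all genes. With library totals only, under which the median of all genes moved by 0.51, 12 were higher and 5 lower. The largest rises among genes averaging at least 100 counts were in the Celf family, which binds GU-rich sequence. Celf6 went from 4.57 ± 0.38 to 32.1 ± 8.7 CPM (SD, n = 2 libraries, log2 change 2.75, adjusted p = 8.83e-06) and Celf4 from 16.8 ± 2.1 to 110 ± 7.2 (adjusted p = 7.4e-07). The largest falls among genes averaging that many counts were those of Mbnl3, a muscleblind protein, from 15.3 ± 4.3 to 0.817 ± 0.075 CPM (log2 change -4.25, adjusted p = 2.5e-05), and Tra2a, an activator of exon inclusion, from 183 ± 29 to 65.7 ± 22 (log2 change -1.48, adjusted p = 0.000337).

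In the single steps, 10 of these 27 genes were higher and 4 lower from E14 to E15.5, beside 16.5% and 19.6% of all genes. From E15.5 to E17, 2 were lower, beside 3.43% of all genes. From E17 to P0, 1 was higher and 1 lower, beside 9.46% and 11.1% of all genes. In the Celf family, Celf2, Celf3, Celf4, Celf5 and Celf6 were higher from E12.5 to P0 and Celf1 was lower (-0.45), but with library totals only Celf1 was 0.08 and not called. In the Elavl family, Elavl3 was higher (1.39), Elavl4 lower (-0.56) and Elavl2 not called (-0.05, adjusted p = 0.758), while with library totals only Elavl4 was -0.03 and not called and Elavl2 was 0.48 and called. Raver1 and Raver2, proteins that bind Ptbp1, were both lower (-1.29 and -1.23, and -0.77 and -0.71 with library totals only).

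A list of 20 genes that carry exons known to be regulated by these proteins was also read, at the level of whole genes, since counts per gene do not show which exons were used. From E12.5 to P0, 12 were higher, 7 lower and 1 was not called, beside 30.1% of all genes higher and 32.0% lower. The median log2 change of the 20 was 1.12 beside -0.01 over all genes. Library totals alone, under which the median of all genes moved by 0.51, gave 13 higher and 6 lower. Snap25, part of the vesicle fusion complex and also one of the neuron markers above, rose from 34.2 ± 0.88 to 402 ± 60 CPM (log2 change 3.54, adjusted p = 4.84e-07). Grin1, an NMDA receptor subunit, rose from 4.91 ± 0.13 to 55.8 ± 12 CPM (log2 change 3.46, adjusted p = 1.26e-06). The actin crosslinker Flna fell from 57.6 ± 1.6 to 4.83 ± 0.086 CPM (log2 change -3.58, adjusted p = 5.8e-07), and Numb, a regulator of Notch signalling, from 22.0 ± 0.79 to 7.01 ± 3.1 CPM (log2 change -1.56, adjusted p = 0.000416).

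Some of these genes have exons that are textbook targets of Ptbp1, Ptbp2 or Srrm4. Dlg4, the postsynaptic scaffold PSD-95, whose mRNA is unstable when Ptbp proteins block one of its exons, rose from 12.7 ± 1.2 to 58.6 ± 5.1 CPM (log2 change 2.20, adjusted p = 1.58e-06). Its called steps were E14 to E15.5 (0.91, adjusted p = 0.000516) and E17 to P0 (0.58, adjusted p = 0.00808). Gabbr1, a GABA-B receptor subunit, rose from 25.8 ± 1.4 to 71.4 ± 21 CPM (log2 change 1.41, adjusted p = 0.000255), with E14 to E15.5 its called step (0.57, adjusted p = 0.0413). Rest, the repressor of neuronal genes in which Srrm4 promotes an exon that truncates the protein, fell from 7.12 ± 0.50 to 1.29 ± 0.17 CPM (log2 change -2.53, adjusted p = 8.68e-06). It was lower in the step to E15.5 (-1.15, adjusted p = 0.000636) and in the step to E17 (-0.70, adjusted p = 0.0443). Src, the tyrosine kinase with a neuronal exon, was the gene not called (0.26, adjusted p = 0.0903). With library totals only it was 0.78 and called (adjusted p = 0.000869).

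**Figure D4:**
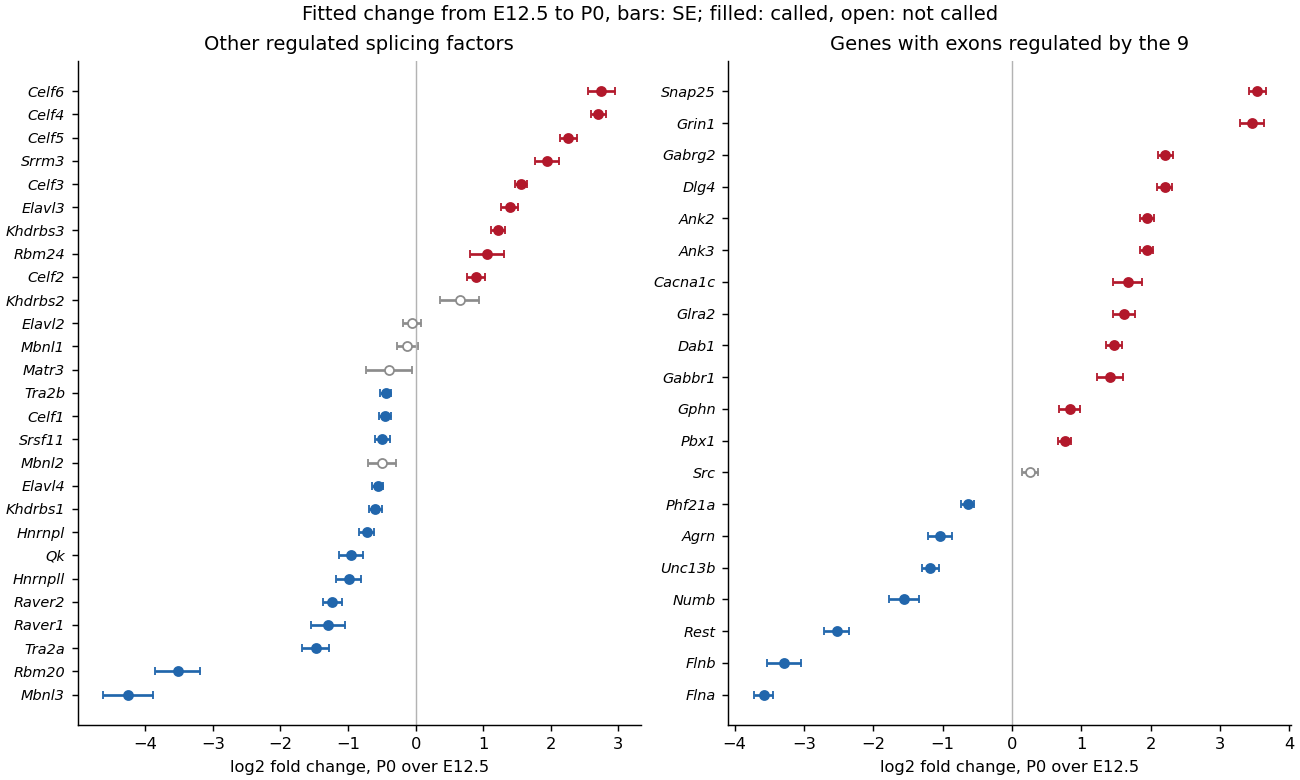
Fitted log2 fold change from E12.5 to P0 for the 27 tested genes of the list of other regulated splicing factors (left) and the 20 genes with exons regulated by the 9 members (right), with bars for the SE. Filled points were called changed (red higher, blue lower) and open points were not. Left, Celf6 stands highest at 2.75 and Mbnl3 lowest at -4.25. Right, Snap25 stands highest at 3.54 and Flna lowest at -3.58.

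Courses were compared by the root-mean-square (RMS) distance of log2 CPM over the 10 libraries, each gene centred on its own mean. They were not scaled, so the distance carries the size of a change as well as its shape. Among the members, Nova2 and Rbfox3 were nearest (0.27), then Nova2 and Rbfox2 (0.315) and Srrm4 and Nova1 (0.324), and Ptbp1 and Rbfox1 were farthest apart (2.27). Within the Ptbp family, Ptbp2 and Ptbp3 were nearer to each other (0.367) than Ptbp1 was to Ptbp3 (0.588) or to Ptbp2 (0.93). The 9215 genes averaging at least 100 counts, the members among them, were then ranked by the same distance from each member, as a description.

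The 3 genes nearest to Ptbp1 were Chtf18 (RMS 0.142), Cdt1 and Cand2, those nearest to Ptbp2 were Thumpd3 (0.0678), Cnot1 and Pwp1, and those nearest to Ptbp3 were Paics (0.0669), Exosc3 and Sf3a3. For Srrm4 they were Zfp319 (0.0788), Itpk1 and Tnrc18. For Nova1 they were Faiml (0.0857), Thap4 and Btbd1, and for Nova2 Tmem170b (0.0685), Apc2 and Soga3. For Rbfox1 they were Plk2 (0.106), Magee2 and Myt1l, for Rbfox2 Sestd1 (0.0643), Mvb12b and Ctnna2, and for Rbfox3 2210016L21Rik (0.104), Slc25a22 and Fbxo9. The nearest genes of Ptbp1, Rbfox1 and Rbfox3 lay at distances over 0.1, and those of the other 6 members closer.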

How the data were processed

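Footprint counts per gene were deposited by the authors as whole numbers, 1 column per library, not scaled for depth. Per the study's methods, read duplicates were collapsed, reads of tRNA, rRNA and snoRNA were removed with Bowtie 2, and what remained was aligned by STAR (version 2.7.0 in the submitters' processing notes) with reads that match several places kept. For gene-level values the methods name isoform estimates by DeepShape-prime and length correction by tximport. Whether the whole-number table came by that route is not given in the sources used here, so genes with near-identical copies are uncertain. Of 22373 identifiers, 22274 matched a symbol. Sequences were matched by symbol, and 7 of the 9 members had a promoter window.

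Genes with at least 32 footprints over the 2 libraries of a stage were kept (13484). Counts were scaled by TMM (edgeR 4.0.16) and tested with limma-voom (limma 3.58.1, R 4.3.3), with 1 coefficient per stage over all 10 libraries, two-sided, with Benjamini-Hochberg adjustment over the genes kept. Calls required an adjusted p below 0.05 together with a change of at least 0.32 on the log2 scale. Paralogue ratios were tested by an exact permutation test of the one-way F statistic over the 945 ways to place the libraries in pairs, adjusted over 5 ratios. The replicates are pools, so p-values measure the spread between pools. In the main fit each gene had 1 residual variance shared by all 5 stages. SEs and p-values of comparisons with P0 therefore do not measure the wider spread at P0 alone. The code was tested on simulated data.

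The members and lists were chosen with earlier results of these data known. Named beside the members were the 2 largest rises and falls of each list among genes called from E12.5 to P0 and averaging at least 100 counts, Rest, Dlg4, Gabbr1, Flna and Srrm3, and the 3 nearest genes of each member. Src, Celf1, Celf2, Celf3, Celf5, the Elavl and the Raver genes were named after their values were seen. Alternatives were library totals without TMM factors, totals without 66 genes whose symbols start with Hist, edgeR, DESeq2 1.42.0, other filters, sample quality weights, the 2 stages compared alone, each library left out, and a replicate block.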

Additional observations from a re-analysis of the deposited data

How the results depend on the processing

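Of 361 refits of called member values, 312 kept the call, 49 lost it and 0 changed direction. Of 494 refits of values not called, 24 became called and 13 changed direction. From E12.5 to E14 the count of called members was 0 with no filter, 0 in the fit of only these stages, 0 with the replicate block and 4 with sample quality weights, and 0 to 4 with a library left out. By limma-voom, 3 to 6 members had an unadjusted p under 0.05 where the count was 0. From E15.5 to E17 it was 1 with library totals only, with no filter and with the replicate block, 4 with sample quality weights or only these stages, and 0 to 3 with a library left out. From E17 to P0 it was 0 in the fit of only these stages. From E14 to E15.5 it was 4 to 8 and from E12.5 to P0 it was 6 to 8. Replicate numbers were not used as pairs in the main fit. Replicate differences correlated between -0.63 and 0.43 over the 10 pairs of stages, 5 of them over 0.1. Those of E12.5 correlated at -0.37, -0.34, -0.11 and -0.63 with E14, E15.5, E17 and P0, and the other pairs lay between -0.04 and 0.43. Whether libraries of different stages are paired was not tested. With the replicate block, the ratios of Ptbp3 to Ptbp1 (1.30) and of Nova1 to Nova2 (-1.60) had an adjusted p of 0.05, and 120 arrangements were possible. With a library left out, the log2 rise of Ptbp2 to Ptbp1 was 1.81 to 2.67, that of Ptbp3 to Ptbp1 was 0.93 to 1.68 and the change of Nova1 to Nova2 was -1.91 to -1.29. Changes of direction were seen only for values near 0 from E17 to P0. Srrm4 was 0.02 with library totals only and -0.22 to 0.09 with a library left out. Nova1 was 0.104 with library totals only, 0.015 without the Hist genes, 0.019 with DESeq2, 0.023 with the stricter filter, 0.0021 with the replicate block and -0.076 to 0.072 with a library left out. Ptbp2 was -0.0017 with sample quality weights and -0.13 to 0.26 with a library left out. The cause of these shifts was not tested. A stage left with 1 library was assumed to vary like the others. With 2 libraries per stage and 7544404 counts in one library of P0, changes near the fold threshold in Nova1, Srrm4 and Ptbp2 were not resolved.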
